A study of Mus musculus with 6 samples.

Results

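The hedgehog genes described here are the ligands Ihh and Dhh, the receptor Ptch1, the signal transducer Smo, the transcription factors Gli1, Gli2 and Gli3, the ligand-binding protein Hhip and the nuclear receptor Nr2f2, which encodes COUP-TFII. They were chosen by name, and all of their probes were taken from the scanner output of 6 arrays. All 9 genes were on the array, through 11 probes, and all 9 were among the 14850 genes tested out of 20141 named on the array. RNA came from the whole uteri of pregnant mice at gestation day (GD) 3.5, mated at 8 to 10 weeks of age, with the embryos removed and 1 uterine sample on each array. The 3 Sox17 ed/ed mice were Ltf iCre/+ Sox17 f/f, and the 3 Sox17 f/f mice carried the same floxed Sox17 alleles without the recombinase, so floxed alleles were shared by both groups. The iCre is expressed from the Ltf locus, acts in the uterine epithelium from about puberty, and leaves Sox17 intact in the endothelium of the stroma.

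In hedgehog signaling, a secreted ligand binds Ptch1 on a receiving cell and so relieves the block that Ptch1 places on Smo, after which Gli factors turn on target genes. Ptch1, Hhip and Gli1 are themselves targets of this signaling in many tissues, and the first pair feed back on it by binding ligand. In the mouse uterus before implantation, Ihh is made by the epithelium under progesterone, its receptors act in the stroma, and Nr2f2 is a stromal gene downstream of it.

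Ihh, Dhh, Ptch1 and Hhip were lower in Sox17 ed/ed uteri. Hhip fell by 3.79 on the log2 scale, whereas the log2 fold change was -3.01 for Ihh, -1.27 for Ptch1 and -1.04 for Dhh. Smo, Gli1, Gli2, Gli3 and Nr2f2 did not pass the threshold, which was an adjusted p under 0.05 in limma, a linear model fitted to all tested genes. Thus 4 of 9 genes fell and 0 rose, beside 10.0% of all tested genes that fell, 8.80% that rose and 18.8% called in either direction. At the thresholds of the study's methods, an unadjusted p under 0.01 with a fold of at least 1.4, the same 4 genes passed, beside 12.5% of all genes. In normalized values the genotypes did not overlap on the arrays for 7 of the 9 genes, beside 40.6% of all genes tested. The exact two-sided permutation test gave p = 0.1 for each of those 7 genes, the smallest value that 3 arrays against 3 allow.

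**Figure D1:**
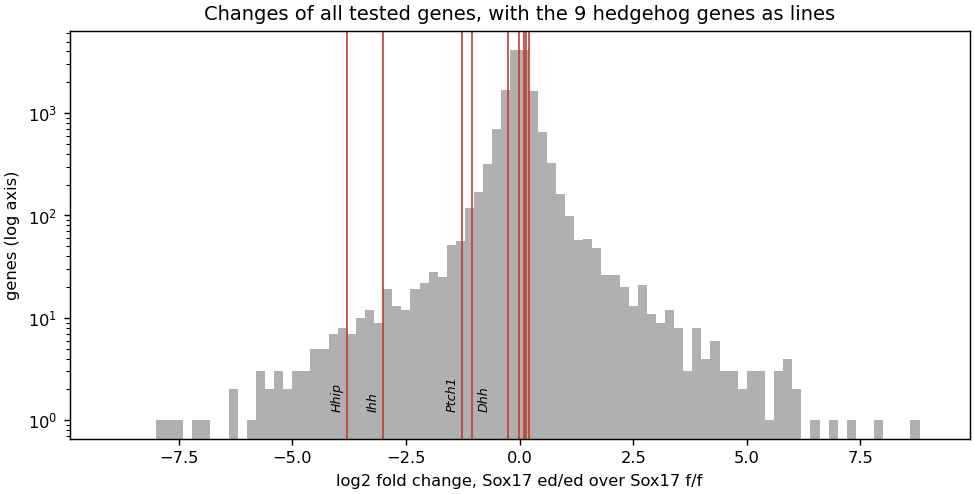
Histogram of the log2 fold change (Sox17 ed/ed over Sox17 f/f, x axis) of the 14850 tested genes, with the number of genes in each bin on a log axis and a line for each of the 9 hedgehog genes. Hhip, Ihh, Ptch1 and Dhh lie from -3.79 to -1.04, and the 5 lines without a name lie between -0.26 and 0.21.

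The 250 bases before the annotated start of the 4 genes that fell are shown because they are the sequence next to which these transcripts begin. They are from RefSeq on GRCm38.p6, written 5′ to 3′ on the strand of the gene in lower case, with matches to the searched motifs in capitals. The table held 8 of the 9 genes, all but Gli1.
Ihh, chr1:74951673-74951922, minus strand: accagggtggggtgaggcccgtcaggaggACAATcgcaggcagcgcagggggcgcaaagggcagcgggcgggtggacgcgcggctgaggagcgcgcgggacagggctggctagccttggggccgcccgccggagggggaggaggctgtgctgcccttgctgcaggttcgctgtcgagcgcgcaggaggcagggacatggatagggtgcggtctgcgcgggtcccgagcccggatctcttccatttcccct
Dhh, chr15:98898541-98898790, minus strand: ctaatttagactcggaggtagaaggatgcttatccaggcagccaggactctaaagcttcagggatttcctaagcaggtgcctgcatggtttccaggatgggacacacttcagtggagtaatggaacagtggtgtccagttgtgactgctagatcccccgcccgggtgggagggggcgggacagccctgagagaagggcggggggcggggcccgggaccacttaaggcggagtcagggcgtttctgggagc
Ptch1, chr13:63565736-63565985, minus strand: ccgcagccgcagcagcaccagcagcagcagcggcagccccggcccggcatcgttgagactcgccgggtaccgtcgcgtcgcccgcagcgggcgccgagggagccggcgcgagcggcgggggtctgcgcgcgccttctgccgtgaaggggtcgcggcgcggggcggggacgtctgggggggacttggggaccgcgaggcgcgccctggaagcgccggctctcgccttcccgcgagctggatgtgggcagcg
Hhip, chr8:80058009-80058258, minus strand: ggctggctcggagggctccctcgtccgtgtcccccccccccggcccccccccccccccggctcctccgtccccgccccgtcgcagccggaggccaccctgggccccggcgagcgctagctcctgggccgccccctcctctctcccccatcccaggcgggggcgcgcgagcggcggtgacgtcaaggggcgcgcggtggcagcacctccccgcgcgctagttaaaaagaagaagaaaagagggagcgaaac
Both strands were searched for the Gli site GACCACCCA, for the shorter core CCACCCA that it contains, and for the Sox core ACAAT. The only match in the 8 promoters was the Sox core of Ihh, which lies 221 to 217 bases before the start. The Sox core was found in 27.7% of the 32851 promoter windows of the same length in the table, CCACCCA in 8.11% and the full Gli site in 0.225%. A match is a run of letters and not a measured site, and the absence of a match concerns these 250 bases alone. The Ptch1 window had 41 CpG dinucleotides and 78.4% G or C, the Hhip window 28 and 76.0%, and the Ihh window 24 and 72.0%, whereas the Dhh window had 9 and 59.6%. The medians over all windows were 6.0 CpG dinucleotides and 52.4% G or C.

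Across the 6 arrays, between 56.8% and 65.7% of the spots that are not controls were well above background, with 60.7% to 65.7% on Sox17 f/f arrays and 56.8% to 59.4% on Sox17 ed/ed arrays. No spot was saturated, and none of the spots of the 11 hedgehog probes was marked as an outlier. All arrays were on 1 slide, with each genotype in a column of its own, so that position on the slide and genotype cannot be told apart. Sox17 itself read 12.21, 12.07 and 12.22 in Sox17 f/f uteri and 9.75, 9.59 and 9.81 in Sox17 ed/ed uteri on the log2 scale, a change of -2.45 (SE 0.09, limma adjusted p = 2.67e-05). Of the markers that define each cell type, 9 of 9 for the epithelium, 9 of 10 for the stroma and 8 of 8 for smooth muscle were measured above background.

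Ihh encodes Indian hedgehog, the epithelial ligand. Its normalized log2 intensity was 12.60, 12.72 and 12.41 in the 3 Sox17 f/f uteri and 9.57, 9.34 and 9.80 in the 3 Sox17 ed/ed uteri. The spread within a genotype was far smaller than the gap between them, with an SD of 0.16 and 0.23. On the linear scale before normalization the processed signal was 6059, 7317 and 5808 against 761, 606 and 897. Ihh was thus 8.05-fold lower where Sox17 was deleted (log2 fold change -3.01, 95% confidence interval -3.35 to -2.67, limma adjusted p = 6.66e-05). Since whole uteri were measured, fewer cells of a type and less RNA per cell cannot be told apart. Of 9 epithelial markers, 4 rose and 1 fell (55.6% called, beside 18.8% of all genes). Their summed normalized signal was 47649 to 49412 in Sox17 f/f and 50903 to 62244 in Sox17 ed/ed uteri. The higher sum rests on Krt19, since without it the other 8 markers summed to 43225 to 45699 in Sox17 f/f and 35820 to 41785 in Sox17 ed/ed uteri. The mean log2 intensity of all 9 markers was higher in Sox17 ed/ed uteri, without overlap (10.69 to 10.81 against 11.03 to 11.30). The part of the epithelial share in the change of Ihh was not tested. Krt19, an epithelial keratin, changed by 2.10, and Cldn3, a tight junction protein, by -1.16. Ehf (1.47), Krt8 (0.69) and Cdh1 (0.59) also rose.

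The genes beside Ihh on its chromosome were not among those called lower. Of the 3 tested genes on each side in RefSeq's order, 0 of 6 fell and 1 rose, Wnt6 with a log2 fold change of 0.49 (limma adjusted p = 0.0495). Nhej1, a DNA repair gene next to Ihh, changed by 0.05 (SE 0.10, limma adjusted p = 0.771). For Hhip, Ptch1 and Dhh, 0 of the 6 nearest tested genes of each were called, with changes from -0.22 to 0.36, from -0.48 to 0.27 and from -0.14 to 0.22. Among all tested genes 10.0% fell, 8.80% rose and 18.8% were called in either direction. Whether the counts of neighbours differ from those shares was not tested. These neighbours were chosen after the changes of the hedgehog genes were known.

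Dhh encodes desert hedgehog, a ligand known from Schwann cells, endothelium and the gonads. Its log2 intensity was 8.96, 9.14 and 8.70 in Sox17 f/f uteri and 7.84, 7.84 and 8.01 in Sox17 ed/ed uteri. All 3 Sox17 ed/ed values lay below all 3 Sox17 f/f values. Dhh was 2.05-fold lower (log2 fold change -1.04, SE 0.13, 95% confidence interval -1.34 to -0.73, limma adjusted p = 0.00285). Endothelial markers were lower in Sox17 ed/ed uteri as well, with 6 of 8 past the threshold (75%, beside 18.8% of all genes). Their summed signal was 43366 to 47626 against 60034 to 61281 in Sox17 f/f uteri. The changes of the endothelial markers ran from -0.57 for Esam to -0.08 for Emcn. Of 8 Schwann cell markers 6 were tested, of which Mbp and Ngfr rose and 0 fell, with a summed signal of 11362 to 12797 in Sox17 f/f and 15522 to 16039 in Sox17 ed/ed uteri, while Foxd3 was well above background on 0 arrays. Of 8 ovarian markers 3 were tested and 0 called (summed signal 402.1 to 438.6 and 427.7 to 491.1), and Cyp19a1, Amh and Fshr were well above background on 0 arrays. The part of these cell types in the changes of Dhh, Ptch1 and Hhip was not tested.

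Shh, the third hedgehog ligand, was well above background on 0 of the 6 arrays and was not tested.

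**Figure D2:**
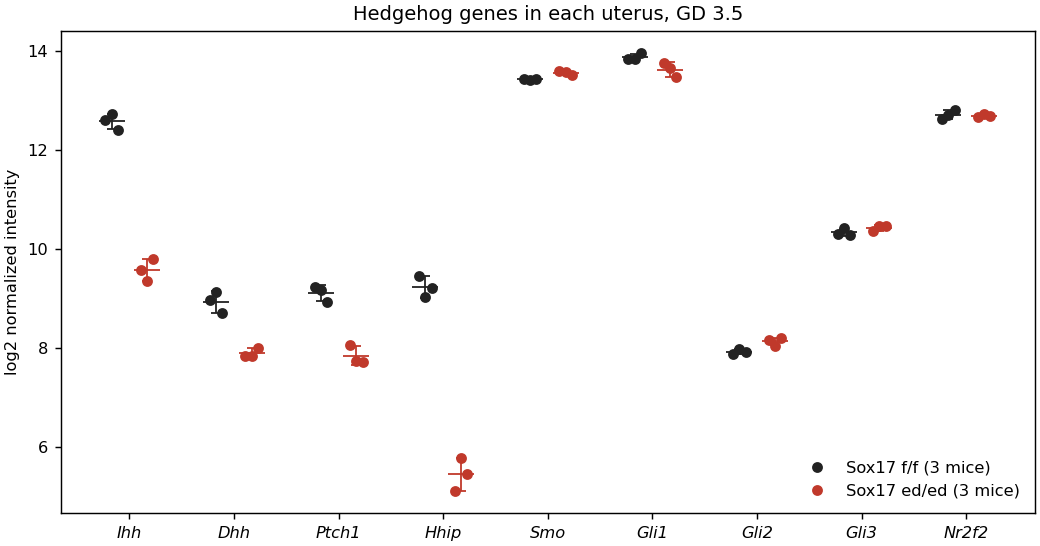
Normalized log2 intensity (y axis) of the 9 hedgehog genes, with a point for each of the 3 Sox17 f/f (black) and 3 Sox17 ed/ed (red) uteri and bars for the mean and SD. The genotypes are apart for Ihh, Dhh, Ptch1 and Hhip and overlap for Gli3 and Nr2f2, and since each gene has its own probe, heights are to be compared within a gene.

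Ptch1 encodes the main hedgehog receptor. Its log2 intensity was 9.23, 9.17 and 8.92 in Sox17 f/f uteri and 8.06, 7.75 and 7.72 in Sox17 ed/ed uteri. The highest Sox17 ed/ed value was below the lowest Sox17 f/f value. Ptch1 was 2.41-fold lower (log2 fold change -1.27, SE 0.13, 95% confidence interval -1.58 to -0.96, limma adjusted p = 0.00138).

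Hhip encodes hedgehog-interacting protein, which binds the ligand at the cell surface and dampens the signal. Its brighter probe read 9.46, 9.03 and 9.21 on the log2 scale in Sox17 f/f uteri and 5.11, 5.77 and 5.45 in Sox17 ed/ed uteri. Before normalization these were processed signals of 676, 547 and 628 against 34.4, 51.8 and 44.1, so the Sox17 ed/ed values lay near the lower end of what the arrays measured, where the lowest signal well above background was 13.1 to 18.0. Hhip was 13.8-fold lower by this probe (log2 fold change -3.79, SE 0.19, 95% confidence interval -4.25 to -3.32, limma adjusted p = 8.82e-05). The dimmer probe of Hhip was above background on 3 of 3 Sox17 f/f arrays and 0 of 3 Sox17 ed/ed arrays, and gives only a bound, at least 1.15-fold lower in Sox17 ed/ed uteri by the lowest normalized signal of a spot well above background on those arrays (limma adjusted p = 0.000273 over all probes, from measured means of 4.43 and 2.25 on the log2 scale). The direction was the same under every setting tried, but the size was not, and with normexp background correction the log2 fold change of the brighter probe was -2.64.

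Smo encodes the transmembrane protein that carries the signal inward. Its brighter probe read 13.43, 13.42 and 13.44 in Sox17 f/f uteri and 13.59, 13.58 and 13.52 in Sox17 ed/ed uteri, and the dimmer probe 9.53, 9.81 and 9.53 against 10.03, 9.94 and 10.04. On both probes the normalized Sox17 ed/ed values were above all Sox17 f/f values. Before normalization the processed signals overlapped on both probes. They were 11023, 11823 and 11752 against 12044, 11294 and 11397 on the brighter. On the dimmer they were 711, 936 and 785 against 1050, 909 and 1063. The change was 0.13 on the log2 scale by the brighter probe (95% confidence interval -0.01 to 0.28, limma adjusted p = 0.164) and 0.38 by the dimmer (limma adjusted p = 0.0427 when it stood for the gene). The call for Smo therefore differed between probes when each stood for the gene. In the fit over all probes neither was called (limma adjusted p = 0.251 for the brighter and 0.0742 for the dimmer). Smo was also called with the mean of both probes (0.25, limma adjusted p = 0.0460) and with normexp background correction (0.26, limma adjusted p = 0.0395). With a 75th percentile shift its change was 0.06 (limma adjusted p = 0.532).

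The Gli genes encode the zinc finger factors at the end of the pathway, Gli1 an activator and Gli3 largely a repressor when no ligand is bound. Gli1 read 13.85, 13.85 and 13.96 in Sox17 f/f uteri and 13.75, 13.66 and 13.47 in Sox17 ed/ed uteri. Its Sox17 ed/ed values were all lower, by a log2 fold change of -0.26 (95% confidence interval -0.48 to -0.03) that did not pass the adjusted threshold (limma adjusted p = 0.108). It passed under normexp background correction with -0.32 (limma adjusted p = 0.0240) and under an eBayes intensity trend with -0.26 (limma adjusted p = 0.0449). Gli2 read 7.88, 7.97 and 7.91 against 8.16, 8.05 and 8.20, all higher in Sox17 ed/ed uteri, with a change of 0.21 (95% confidence interval 0.04 to 0.38, limma adjusted p = 0.0874). Before normalization the processed signals of Gli2 overlapped (223.5, 261.9 and 256.2 against 287.6, 246.8 and 295.3). Gli3 read 10.31, 10.42 and 10.28 against 10.36, 10.47 and 10.47, which overlapped, with a change of 0.10 (95% confidence interval -0.08 to 0.27, limma adjusted p = 0.392).

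Nr2f2 read 12.62, 12.71 and 12.80 in Sox17 f/f uteri and 12.67, 12.73 and 12.68 in Sox17 ed/ed uteri. All 3 Sox17 ed/ed values fell within the range of the Sox17 f/f values. The log2 fold change was -0.02 (95% confidence interval -0.19 to 0.16, limma adjusted p = 0.893), and the exact permutation test gave p = 0.8. Of 9 stromal markers tested, Hoxa10 rose and Dcn fell, with a summed signal of 410676 to 428953 in Sox17 f/f and 347673 to 407754 in Sox17 ed/ed uteri, while their mean log2 intensity overlapped (14.16 to 14.27 against 14.13 to 14.25). The lower stromal sum rests on Dcn, since without it the other 8 overlapped (295058 to 316473 against 264911 to 313976). Of 8 smooth muscle markers, 0 rose and 2 fell, with a summed signal of 494465 to 546202 against 368430 to 443905, and their mean log2 intensity overlapped as well (14.01 to 14.11 against 13.61 to 14.08). Of 5 leukocyte markers tested 1 rose and 0 fell (14481 to 14738 against 16876 to 18515). The higher leukocyte sum rests on Csf1r, the marker that rose, since without it the other 4 overlapped (6511 to 7481 against 7261 to 8146). Of 5 mesothelial markers 2 rose and 1 fell (13332 to 14125 against 16113 to 16265). The mesothelial sum was nearly all Wt1, and without it the other 4 summed to 460.3 to 492.2 against 360.5 to 591.7. Over all tested genes 18.8% were called.

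**Figure D3:**
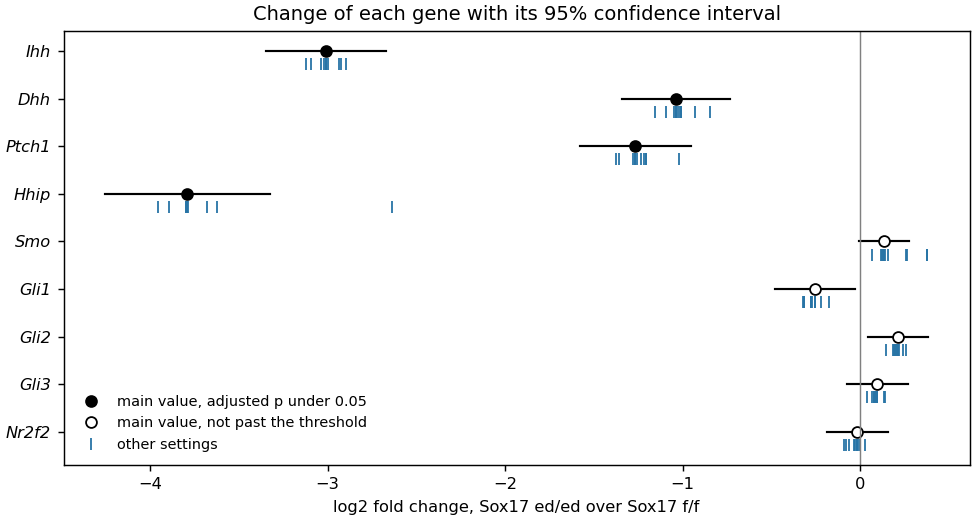
Log2 fold change of each hedgehog gene (x axis) with its 95% confidence interval, filled where the adjusted p was under 0.05, and below it a blue mark for each other setting, without those that draw on the dimmer probe of Hhip, which gives only a bound. Ihh, Dhh, Ptch1 and Hhip stay below 0 under all settings shown, Hhip from -3.95 to -2.64, and Smo, Gli1, Gli2, Gli3 and Nr2f2 lie between -0.32 and 0.38.

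Gli1, Ptch1 and Hhip are commonly read together as targets of hedgehog signaling, so the change of each gene was compared with that of Gli1 by subtracting the Gli1 value of the same array. Relative to Gli1, Hhip was lower by a log2 difference of -3.53 (limma adjusted p = 1.42e-05), Ihh of -2.75 (limma adjusted p = 3.17e-05), Ptch1 of -1.01 (limma adjusted p = 0.00220) and Dhh of -0.78 (limma adjusted p = 0.0189). Smo was higher relative to Gli1 by 0.39 (limma adjusted p = 0.0445), and for Gli2 this difference was 0.47 (limma adjusted p = 0.0396). For Gli3 (0.35, limma adjusted p = 0.0964) and Nr2f2 (0.24, limma adjusted p = 0.170) the difference did not pass. In this fit 24.1% of all other tested genes were called. Each row of this fit carries the spread of Gli1, so moderation across genes makes its p-values too small. With each gene's own variance, Hhip (adjusted p = 0.0116 from limma's linear fit), Ihh (0.0136), Ptch1 (0.0334) and Smo (0.0487) still passed, whereas Dhh (0.0864) and Gli2 (0.0807) did not.

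With arrays left out of the moderated fit, the difference of Dhh from Gli1 was not called without Sox17 f/f replicate 1 (-0.75), Sox17 f/f replicate 2 (-0.66) or Sox17 ed/ed replicate 2 (-0.74), and those of Smo and Gli2 were not called without any of 5 arrays, all but Sox17 ed/ed replicate 1. Gli3 passed without that array (0.45). The differences of Hhip, Ihh and Ptch1 from Gli1 passed without any of the 6 arrays in turn.

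**Figure D4:**
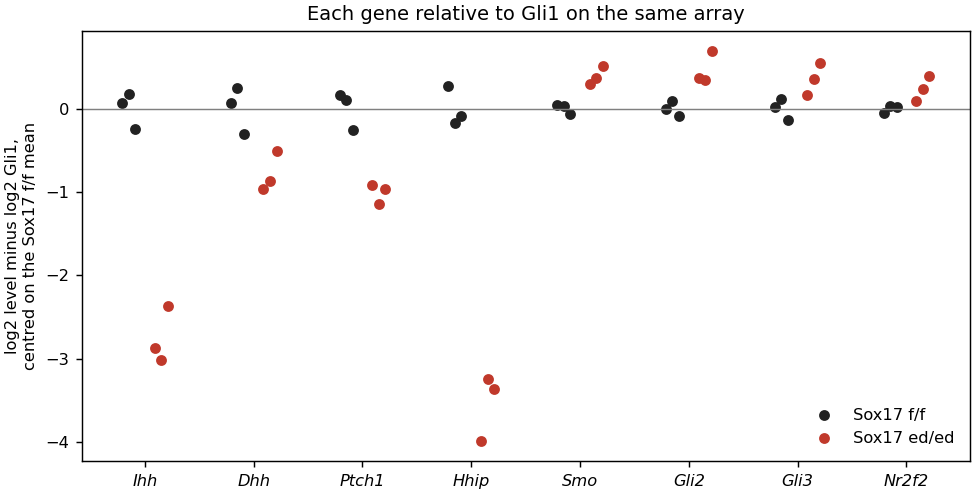
Log2 level of each gene minus that of Gli1 on the same array, centred on the Sox17 f/f mean (y axis), with a point for each uterus. Hhip, Ihh, Ptch1 and Dhh lie below 0 in all Sox17 ed/ed uteri, and Smo, Gli2, Gli3 and Nr2f2 lie above 0.

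The genes around these members in the pathway were described by role, from lists written for this work. Over the 6 lists of ligand handling, receptors, cilium, Gli regulation, targets and uterine genes, 64 of 71 genes were tested, of which 8 rose and 6 fell (21.9% called, beside 18.8% of all genes), with a median log2 fold change of 0.04 beside -0.0014 over all genes. The share called over the lists was thus close to that over the array.

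Among genes for making and releasing the ligand, 1 of 5 tested rose and 1 fell (40% called, beside 18.8% of all genes). Disp2, a relative of the transporter that releases hedgehog ligand, read 6.34, 7.39 and 7.17 in Sox17 f/f uteri and 5.07, 4.97 and 4.51 in Sox17 ed/ed uteri, a change of -2.12 (limma adjusted p = 0.00502). Scube2, a secreted protein that helps to release the ligand, changed by 0.58 (limma adjusted p = 0.0238). Disp1, the main transporter, changed by -0.21 (limma adjusted p = 0.152), and Hhat, which attaches palmitate to the ligand, by -0.31 (limma adjusted p = 0.0574). Scube3 was above background on 1 array and was not tested.

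Of 6 other receptors and co-receptors, 3 fell and 0 rose (50% called, beside 18.8% of all genes). Lrp2, an endocytic receptor, fell by 1.68 on the log2 scale (limma adjusted p = 0.00499), and Gpc3, a glypican known to compete with Ptch1 for ligand, fell by 0.74 (limma adjusted p = 0.00204). The co-receptors Cdon (-0.08), Boc (-0.13) and Gas1 (-0.02) were not called.

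Neither list of intracellular components had a gene past the threshold. Among all tested genes 18.8% were called. Of 15 genes of the primary cilium and of transduction by Smo, 0 were called, with changes from -0.35 for Gpr161 to 0.35 for Efcab7. Of 17 tested regulators of Gli, 0 were called, with changes from -0.17 for Zic1 to 0.55 for Glis3 (limma adjusted p = 0.102 for Glis3). Sufu, which holds Gli factors in the cytoplasm, changed by 0.18 (SE 0.16), and Kif7, a ciliary kinesin, by -0.07 (SE 0.10). Zic2 was well above background on 0 arrays and was not tested.

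Of 10 tested genes known as hedgehog targets in other tissues, 4 rose and 1 fell (50% called, beside 18.8% of all genes). Mycn, a driver of cell growth, read 5.94, 6.63 and 5.54 in Sox17 f/f uteri and 7.91, 7.45 and 8.19 in Sox17 ed/ed uteri, a change of 1.81 (limma adjusted p = 0.0111). Osr1 (0.55) and Hsd11b2 (0.49) also rose, as did Ccnd1, the G1 cyclin (0.41, limma adjusted p = 0.0113). Sfrp1, a secreted Wnt antagonist, fell by 0.94 on the log2 scale (limma adjusted p = 0.00388). The 4 genes that rose thus moved opposite to Ptch1 and Hhip, and Sfrp1 moved in the same direction as that pair. Whether these genes respond to hedgehog signaling in the uterus was not tested. Of 8 markers of dividing cells, Mcm5 rose and 0 fell, with a summed signal of 20202 to 23201 in Sox17 f/f and 27162 to 29627 in Sox17 ed/ed uteri. Foxf1, Foxf2 and Foxl1 were above background on 2, 1 and 0 arrays and were not tested.

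Of 11 uterine genes placed downstream of Ihh, 3 rose and 1 fell (36.4% called, beside 18.8% of all genes). Fgf12, a fibroblast growth factor, read 5.14, 5.02 and 5.06 in Sox17 f/f uteri and 6.70, 6.88 and 6.63 in Sox17 ed/ed uteri, a change of 1.66 (limma adjusted p = 9.25e-05). Wnt4, a Wnt ligand of the decidua, read 6.63, 6.72 and 6.59 against 8.52, 8.26 and 8.00, a change of 1.61 (limma adjusted p = 0.000602). These genotypes were far apart for both genes. Hoxa10 rose by 0.34 (limma adjusted p = 0.0139) and Fgf18 fell by 0.73 on the log2 scale (limma adjusted p = 0.0214). Hand2, a stromal factor that responds to progesterone, read 11.05, 11.24 and 10.76 against 11.33, 11.37 and 11.31, all higher in Sox17 ed/ed uteri, but did not pass (0.32, limma adjusted p = 0.129). Fgf9 overlapped between the genotypes (0.85, SE 0.43, limma adjusted p = 0.226), and Bmp2, a morphogen of the decidua, changed by 0.09 (limma adjusted p = 0.533).

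Of 5 genes tied to an enhancer of Ihh, Foxa2 fell, as did Sox17, which was deleted by design, and 0 rose. Among all tested genes 10.0% fell. Foxa2, a factor of the glandular epithelium, read 10.95, 10.35 and 10.45 in Sox17 f/f uteri and 5.80, 5.75 and 6.68 in Sox17 ed/ed uteri, a change of -4.51 (limma adjusted p = 0.000225). Pgr, the progesterone receptor, changed by 0.01 (SE 0.06, limma adjusted p = 0.946) and Gata2 by 0.20 (SE 0.16, limma adjusted p = 0.429).

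**Figure D5:**
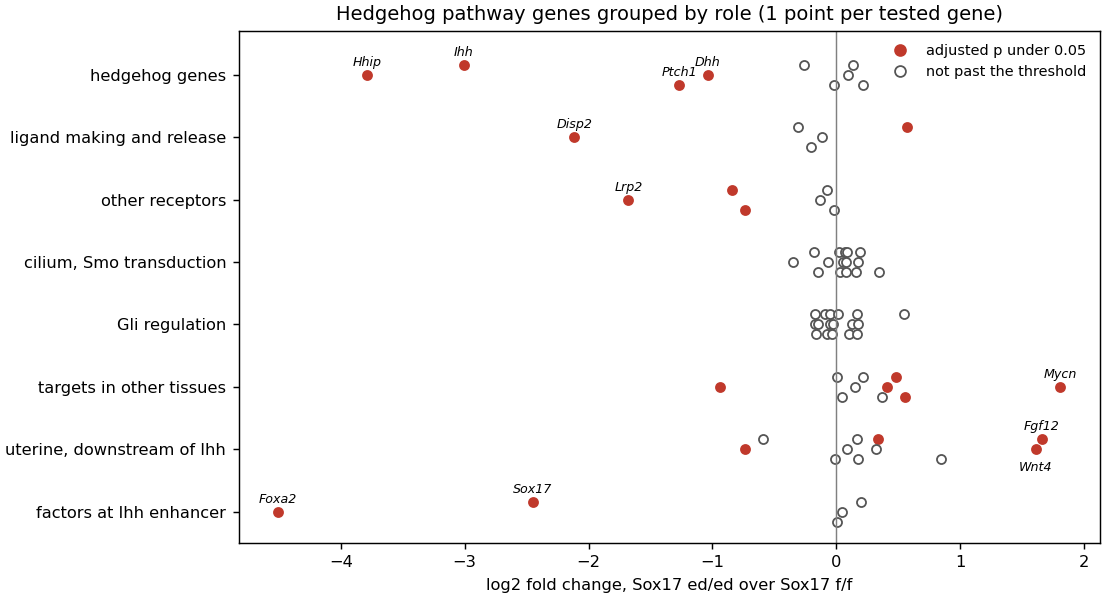
Log2 fold change (x axis) of the 9 hedgehog genes, tested genes of each pathway list and the genes tied to an enhancer of Ihh. Each gene has a point, filled where the limma adjusted p was under 0.05. The lists of cilium and Gli regulation genes hold 0 called genes of 15 and 17, beside 18.8% of all genes, and each other row holds called genes.

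The tested genes whose values over the 6 arrays were most like those of Ihh were Rgs5, Cobl, Fbln7, Hdc and Slc39a14, each with Pearson r of 0.998 to 0.999. Hdc, which makes histamine, changed by -5.68 and Cobl, an actin nucleator, by -2.87, whereas Rgs5, a pericyte gene, changed by -0.41. For Ptch1 the most alike were Naip1, Sh3bgrl2, Zfp57, Tnfrsf11b and Nup153 (r of 0.997 to 0.998), and for Hhip they were Rasip1, Rtn1, Flot1, Ccnb3 and Nfil3 (r of 0.9986 to 0.9996). Since the arrays fall into 2 groups by genotype, r mainly reflects the gap between them, and 125 genes reached r over 0.99 with Ihh, 31 with Ptch1 and 126 with Hhip. Rasip1, an endothelial gene, changed by -0.47 and Rtn1, a reticulon, by -3.52.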

How the data were processed

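The authors deposited the scanner output of 6 Agilent G3 mouse expression arrays read in 1 colour and a table of processed values. From the deposited files the processed spot intensity was used. Feature Extraction (11.0.1.1 per the file headers, 9.1 per the submitters' processing notes) had subtracted its background. It carries no normalization between arrays, and the table of processed values was within 0.191% of its mean over spots. Subtraction makes dim values uncertain on a log scale.

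Control and outlier spots were left out. Signals were taken to log2 and quantile normalized, as the study's methods state, with repeated spots averaged. A probe was kept if at least 3 of the 6 arrays showed it well above background. Of 55681 probes, 26576 were named by accession through RefSeq's gene table, and the brightest probe stood for a gene. The array was designed on mm9 and the table is of GRCm38.p6, so no gene coordinates are given other than those of the RefSeq promoters. Genotypes were compared by lmFit and eBayes of limma 3.58.1 (R 4.3.3), and p-values were adjusted over all tested genes by Benjamini and Hochberg. Promoters and plots used Python 3.11.15, pandas 2.3.3 and matplotlib 3.10.9. The steps were tested on simulated data. Precision is limited by having 3 arrays per genotype.

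The genes and lists were chosen with earlier results of these data known. Named are the 9 genes, in each pathway list up to 4 called genes of the largest change, genes the study names for this pathway, and the 5 genes most like Ihh, Ptch1 and Hhip. Other list members, markers and neighbours were named after their values were seen. Some list members are counted but not reported here by name. Replicate numbers did not pair the arrays. Alternatives were a 75th percentile shift, normexp with an offset of 50 (on the median spot signal, since no mean signal was in the files), no filter or a filter on all 6 arrays, other probes, an eBayes trend, the deposited values, a replicate block and leaving out each array.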

Additional observations from a re-analysis of the deposited data

How the results depend on the processing

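Ihh (-3.12 to -2.90), Ptch1 (-1.37 to -1.02) and Dhh (-1.15 to -0.85) kept their direction and stayed past the threshold under all alternatives run, with adjusted p of at most 0.0209, as did Hhip under those that use its brighter probe alone (-3.95 to -2.64). The 3 alternatives that draw on the dimmer probe of Hhip, which gives only a bound, are left out of this range and give no size for it. Gli2 and Gli3 passed under none. Smo passed with normexp (0.26), the mean of its probes (0.25), and its other probe, which also had the smallest p (0.38). Gli1 passed with normexp (-0.32) and an eBayes trend (-0.26). Nr2f2 changed sign without Sox17 f/f replicate 3 (0.028), within a range of -0.062 to 0.028 over arrays left out. The count of all called genes was 2797, and 1856 with the replicate number as a block. It was also 1856 at the thresholds of the study's methods, by a different fit. It ranged from 1651 to 2658 with an array left out, being 1651 without Sox17 f/f replicate 1 and 1813 without Sox17 ed/ed replicate 1. Of the pathway genes 14 were called, and 9 with the replicate block. The replicate numbers did not pair the arrays (correlations of their deviations 0.064, -0.11 and -0.0005).

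Relative to Gli1, with the replicate block, Smo (0.39) and Gli2 (0.47) were not called. That fit gave each hedgehog gene the same SE (0.24), so its calls do not rest on a gene's own spread. With normexp Gli3 was called (0.36). Over all settings the difference ranged from -3.68 to -2.32 for Hhip, -2.95 to -2.61 for Ihh and -1.14 to -0.71 for Ptch1. These 3 passed under each setting, but normexp gave the smallest size for each. With an array left out, the differences ranged from -0.93 to -0.66 for Dhh, 0.33 to 0.44 for Smo, 0.36 to 0.53 for Gli2 and 0.26 to 0.45 for Gli3. Without moderation across genes, an alternative chosen after seeing the data, Dhh (-0.78) and Gli2 (0.47) were not called, and 1824 genes were called in place of 3582. The cause of these shifts was not tested, and leaving out an array changes both the number of arrays and which arrays remain. Signals near background, as those of Hhip in Sox17 ed/ed uteri, have sizes that depend on the correction.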
